A study of Mus musculus with 54 samples.

Results

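Messenger RNA of mouse spleen 24 h after 10 Gy of gamma radiation was compared with that of unirradiated spleen. The comparison covers every gene with at least 1 FPKM in either of the 2 libraries, 12012 of the 13611 genes measured. FPKM is the number of sequenced fragments of a gene after division by its length and by the library's size. A level of 1 FPKM was reached in both libraries by 11179 of these genes, only at 24 h by 550 and only at 0 h by 283. At the limit, Gfpt2 (0.297 FPKM at 0 h and 1.00 at 24 h) was included, and Cdo1 (0.747 and 0.998) was not.

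The series followed spleen, thymus and both intestines of C57B6 mice and the fibroblast line NIH3T3 after irradiation, and its title concerns p53 and the radiation sensitivity of tissues. Each tissue had 10 libraries, 1 at 0 h, 1 at each hour from 1 to 8 h and 1 at 24 h. The groups used here are untreated spleen (0 h, n = 1), spleen at 6 to 8 h after 10 Gy (n = 3) and spleen at 24 h after 10 Gy (n = 1), with thymus and small intestine at 0 h and 24 h (n = 1 each) beside them. The mice carried no allele or further agent that the labels name, and the labels give neither age nor sex, nor whether libraries of different hours came from separate animals. A whole organ was sampled, so levels are averages over all of its cells, and fewer cells of a type and less RNA per cell cannot be told apart. Because only 0 h was unirradiated, effects of radiation, of the time of day and of handling cannot be told apart either.

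Spleen has a red pulp, where macrophages take up aged red cells, recycle their iron and, in mice, red cells are also formed, and a white pulp of B cell follicles, T cell zones and a marginal zone between the pulps. Resting B and T cells are among the most radiation sensitive cells of the body, while macrophages and stromal cells withstand much higher doses. After DNA damage the transcription factor p53 switches on genes that halt the cell cycle or start cell death. The unirradiated library held the defining genes of these compartments, with the B cell receptor gene Cd79a at 484 FPKM, the T cell receptor gene Cd3e at 33, the red cell gene Alas2 at 495 and the red pulp macrophage factor Spic at 127, and Rag1 of thymocytes at 0.154.

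The sources used here give no fragment totals. Fragment ratios were estimated from genes between 0.01 and 0.15 FPKM in both libraries, on the assumption of 1 fragment in each. By their most frequent FPKM ratio, the 24 h spleen library held about 1.25 times the fragments of the 0 h library, and the 6 h library 0.524 times. These estimates are rough, since only 25.8% and 38.5% of the low genes had a ratio near the most frequent one. Haemoglobin genes made up 8.82% of all FPKM at 0 h, 15.1% at 4 h, 2.68% at 5 h, 3.61% to 4.5% at 6 to 8 h and 0.156% at 24 h. Digestive enzymes of the pancreas made up 18.6% of FPKM in the 6 h library, 0.0698% at 7 h, 0.00638% at 0 h and 0.0144% at 24 h. FPKM is a share of the library, so such large components move all other values. Values for 6, 7 and 8 h are therefore given one by one.

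Genes were tested with limma on log2(FPKM + 1), and changes are log2 fold changes on that scale ± SE, which understate the change of low genes. The spread came from libraries of neighbouring hours (1 to 2 h, 3 to 5 h and 6 to 8 h) in all tissues, and the single libraries at 0 h and 24 h were assumed to vary like them. Of the 12012 genes, 11661 had a mean of at least 1 FPKM over the 10 spleen libraries and were tested. At a Benjamini-Hochberg adjusted p below 0.05, 1561 of 11791 tested genes were higher at 24 h (13.2%) and 886 lower (7.51%). The other 9214 tested genes of the comparison were not called and 351 were not tested. With no test, 1606 of 12012 genes were at least 2-fold higher (13.4%) and 769 at least 2-fold lower (6.4%). The median change over all tested genes was 0.09.

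The balance of higher and lower calls depended on scaling. Of the called genes, 63.8% were higher with FPKM as deposited, 57.4% after median centring and 49.6% after quantile normalization. The share was 37.7% after rescaling the libraries of each tissue to equal sums without haemoglobin and pancreas genes. That rescaling, chosen after the values had been seen, gave 869 higher and 1434 lower genes and moved the median over all tested genes to -0.143. Of the 2447 genes called, 1755 remained called under it. Counts of each list against 0 h are to be read beside 13.2% higher and 7.51% lower among all tested genes. List medians are to be read beside the median of 0.09 over all tested genes. These values hold for FPKM as deposited, and a list that changes its direction is named as such.

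**Figure D1:**
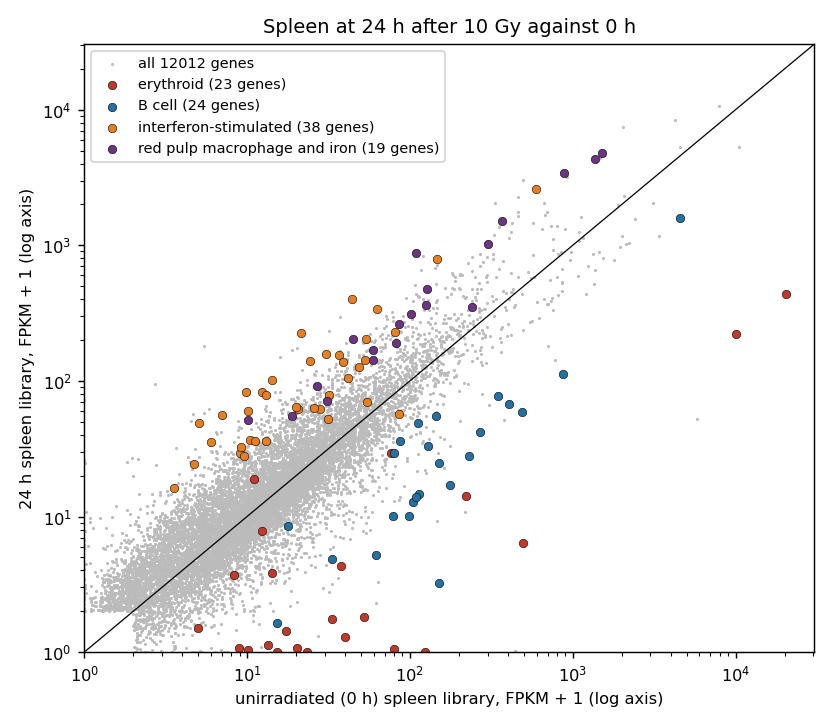
FPKM + 1 of the 12012 genes in the unirradiated spleen library (horizontal, log axis) against the 24 h library (vertical, log axis), with 1 point per gene, 4 gene lists in colour and equality as the black line. Most red cell and B cell genes lie below the line and most interferon and macrophage genes above it.

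**Figure D2:**
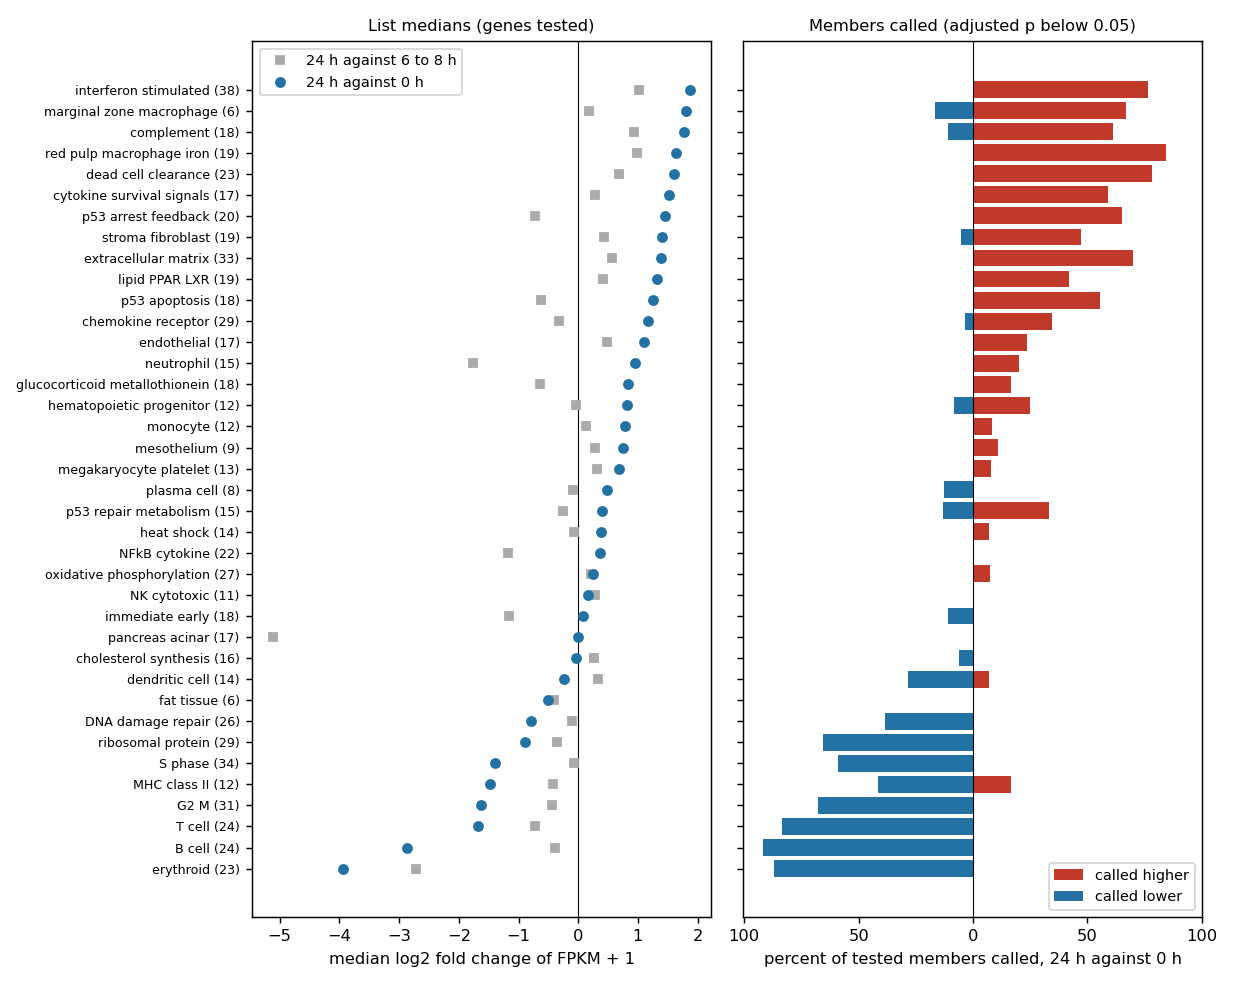
Left, the median log2 fold change of FPKM + 1 over the tested genes of each list with at least 5, at 24 h against 0 h (circles) and against 6 to 8 h (squares), and right, the percentage of those genes called higher (red) or lower (blue) at 24 h against 0 h. The erythroid list has the lowest median against 0 h (-3.94) and the interferon-stimulated list the highest (1.87).

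Red cell genes had the lowest median of the lists. Of 23 tested genes of the erythroid list, 20 were lower at 24 h, beside 7.51% of all tested genes, and 0 higher, beside 13.2%, with a median change of -3.94. Alas2, the rate-limiting enzyme of haem synthesis in red cell precursors, stood at 495 FPKM at 0 h, 283, 249 and 291 at 6, 7 and 8 h, and 5.36 at 24 h. It fell by 6.28 ± 0.73 (adjusted p = 5.1e-06), a 92.2-fold difference in FPKM. The 24 h library was below all others, of which the lowest, at 5 h, held 136 FPKM.

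Membrane genes of the red cell were also lower at 24 h, though their levels at 6 to 8 h differed. Slc4a1, the anion exchanger band 3, was at 79.2 FPKM at 0 h, 50.8, 70.2 and 83.9 at 6, 7 and 8 h, and 0.061 at 24 h, where it is listed near 0. Rhd, a blood group protein of the Rh complex, was at 38.9 FPKM at 0 h, 6.98, 12.1 and 17.6 at 6, 7 and 8 h, and 0.303 at 24 h, and fell by 4.94 ± 0.60 (adjusted p = 6.77e-06). Epb42 of the membrane skeleton was listed near 0 at 24 h (0.0357 FPKM, from 9.17), and Kel, the Kell blood group gene, at exactly 0 from 14.4.

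Haemoglobin transcripts, which fill the late red cell precursor, fell with them. Hba-a1 stood at 10050.3 FPKM at 0 h, 5449.8, 4649 and 5318 at 6, 7 and 8 h, and 221 at 24 h, and fell by 5.50 ± 1.44 (adjusted p = 0.00945). Hbb-bt fell by 6.80 ± 1.33 (adjusted p = 0.00106), from 5813 to 51.3 FPKM, and Hbb-b1 fell by 5.54 ± 1.95 (adjusted p = 0.0454). The copies of each globin gene are near-identical, so the split of fragments between Hbb-b1, Hbb-bt and Hbb-bs is uncertain. Bpgm, which makes the metabolite that lowers the oxygen affinity of haemoglobin, fell by 4.32 ± 0.63 (adjusted p = 5.21e-05), and Cldn13, a claudin, fell by 4.39 ± 0.53 (adjusted p = 6.77e-06). With a pseudocount of 0.1 in place of 1, Hba-a1, Hbb-b1 and Hbb-bt were not called. Hbb-b1 also lost its call when the library of 1, 2, 3, 6, 7 or 8 h was left out.

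Regulators of the lineage did not all move alike. Klf1, the red cell Krüppel-like factor, was at 22.2 FPKM at 0 h, 1.66, 2.42 and 4.32 at 6, 7 and 8 h, and 0 at 24 h, most of its decline lying before 8 h. Gata1, shared with platelet and mast cell precursors, fell by 1.90 ± 0.26 (adjusted p = 2.51e-05), from 13.2 FPKM through 5.57, 3.52 and 5.03 to 2.81. Car1, a carbonic anhydrase, fell earliest, from 123 FPKM at 0 h to 57.3 at 1 h and 3.86 at 2 h, and is listed at 0 from 5 h on. Tfrc, the receptor for iron-loaded transferrin, fell by 3.11 ± 0.44 (adjusted p = 3.43e-05). Epor, the erythropoietin receptor, was at 10.1 FPKM at 0 h, 7.57, 5.37 and 7.73 at 6, 7 and 8 h, and 17.9 at 24 h, a change against 0 h of 0.78 ± 0.34 (adjusted p = 0.108), and it rose against 6 to 8 h by 1.28 ± 0.28 (adjusted p = 0.0047).

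Most of the difference in the erythroid list lay between 8 and 24 h. At 24 h against 6 to 8 h, 16 of the 23 erythroid genes were lower and 1 higher, with a median of -2.72. In that comparison 6.24% of all tested genes were higher (736) and 4.35% lower (513), with a median of 0.04; it shares the 24 h library with the comparison against 0 h. Without the 7 h library, 439 were higher and 338 lower, and after the rescaling 47.5% of called genes were higher in place of 58.9%. Hours 4 and 5 stood apart from their neighbours, as did the haemoglobin share given above: Alas2 was at 894 FPKM at 4 h and 136 at 5 h, and Rhd at 24.4 and 4.31. Both hours remained above the 24 h values. Without genes under 0.1 FPKM in either library, 13 erythroid genes were called lower.

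Promoters of red cell genes are shown because most members of the list were lower at 24 h and the list includes classical targets of Gata1. Sequences are from RefSeq (GRCm38.p6, the assembly of mm10), 90 bases each from upstream of the transcript start, with the letters AGATAA, or TTATCT on the other strand, in capitals. The stretches lie at chrX:150547289-150547378, plus strand for Alas2, chr4:134864446-134864535, plus strand for Rhd and chr6:41704334-41704423, minus strand for Kel.
Alas2: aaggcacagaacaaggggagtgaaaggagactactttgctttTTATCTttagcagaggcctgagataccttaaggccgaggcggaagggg
Rhd: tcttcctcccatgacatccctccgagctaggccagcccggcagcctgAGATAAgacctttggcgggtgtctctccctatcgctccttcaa
Kel: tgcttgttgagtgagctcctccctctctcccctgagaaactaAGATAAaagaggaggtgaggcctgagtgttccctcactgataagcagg

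Of the 23 tested erythroid genes, 16 had an entry in the promoter table, and 7 of these (43.8%) held AGATAA on either strand in the 250 bases before a start, namely Alas2, Epb42, Epor, Kel, Rhd, Tal1 and Trim10. Epor held a match and was not called against 0 h. The same letters were in 668 of 9069 tested genes with an entry (7.37%). The letters CCACACCC (GGGTGTGG on the other strand), bound by Krüppel-like factors, were in 0 of the 16 and in 4.26% of all. These are matches of letters in a window and not binding sites, and binding was not measured.

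B cell genes were lower at 24 h with few exceptions. Of 24 tested B cell genes, 22 were lower at 24 h and 0 higher, with a median of -2.87. Cd79a, a signalling chain of the B cell receptor, was at 484 FPKM at 0 h, 66.5, 65.4 and 66.2 at 6, 7 and 8 h, and 58.3 at 24 h, and fell by 3.03 ± 0.44 (adjusted p = 4.93e-05). For Cd79a the 3 libraries at 6 to 8 h already lay within 10 FPKM of the 24 h library.

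Genes of mature follicular B cells were among them. Fcer2a, the low-affinity IgE receptor CD23, stood at 149 FPKM at 0 h, 366 at 2 h, 33.9, 21.9 and 15 at 6, 7 and 8 h, and 2.22 at 24 h. It was above its unirradiated level from 1 to 4 h, and at 24 h it fell by 5.55 ± 0.67 (adjusted p = 6.86e-06). Pax5, the factor that maintains B cell identity, fell by 3.57 ± 0.42 (adjusted p = 5.52e-06), Cxcr5, the receptor that guides B cells into follicles, fell by 3.31 ± 0.42 (adjusted p = 1.08e-05), and H2-Ob, a modulator of peptide loading, fell by 3.37 ± 0.36 (adjusted p = 1.92e-06). The members not called were Pou2af1 (143 to 54 FPKM) and Cd74 (4555 to 1600.0 FPKM). Bank1, an adaptor of the B cell receptor, was lower than at 0 h but rose against 6 to 8 h by 0.97 ± 0.30 (adjusted p = 0.0415). Against 6 to 8 h, 4 B cell genes were lower and 1 higher (median -0.40).

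Antigen presentation genes divided. Of 12 tested genes of the MHC class II list, 5 were lower and 2 higher (median -1.48). The class II chain gene H2-Aa went from 3377 to 1170.1 FPKM and fell by 1.53 ± 0.48 (adjusted p = 0.0274), H2-DMb2 fell by 2.82 ± 0.34 (adjusted p = 6.77e-06) and Ciita, the master activator of class II genes, fell by 2.08 ± 0.36 (adjusted p = 0.000283). Ctss and Ifi30, a protease and a reductase of antigen processing that macrophages also make, rose by 1.02 and 0.79, but Ctss was not called when any 1 of the 1 to 8 h libraries was left out, and neither was called after quantile normalization. Lower calls numbered 8 in a fit of spleen libraries alone and 8 after the rescaling without haemoglobin and pancreas genes.

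Among plasma cell genes few changes passed the test. Of 8 tested, 1 was lower (Irf4, 29.7 to 14.1 FPKM), beside 7.51% of all tested genes, and 0 higher. Irf4 was not called with a pseudocount of 0.1, in a fit of spleen libraries alone or with other window borders. The other window borders gave 1 higher gene. Jchain, which joins the units of secreted IgM and IgA, was at 753 FPKM at 0 h, 719.8, 813 and 1160.3 at 6, 7 and 8 h, and 1120.1 at 24 h, a change of 0.57 ± 0.54 (adjusted p = 0.475). Xbp1, the factor that expands the secretory apparatus, was at 85.3 FPKM at 0 h, 214, 199.5 and 202 at 6, 7 and 8 h, and 152 at 24 h, 0.83 ± 0.30 (adjusted p = 0.0504).

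Most T cell genes were lower as well. Of 24 tested, 20 were lower and 0 higher (median -1.67), and 10 were lower against 6 to 8 h (median -0.73). Cd8b1, a chain of the co-receptor of cytotoxic T cells, stood at 61.3 FPKM at 0 h, 12.2, 11.6 and 8.63 at 6, 7 and 8 h, and 1.31 at 24 h, and fell by 4.75 ± 0.42 (adjusted p = 1.72e-07). Lef1 and Tcf7, factors of naive T cells, parted in time: Lef1 went through 11.6, 5.94 and 8.72 FPKM at 6, 7 and 8 h on the way from 19.4 to 1.34 FPKM, while Tcf7 was at 48.8 FPKM at 0 h, 51.5, 50.1 and 46 at 6, 7 and 8 h, and 14.2 at 24 h.

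Signalling genes shared by T cells fell with them. Cd3e, a chain of the T cell receptor complex, was at 33 FPKM at 0 h, 25.3, 23.1 and 24.2 at 6, 7 and 8 h, and 9.46 at 24 h, and fell by 1.70 ± 0.48 (adjusted p = 0.0152). Cd2 fell by 2.33 ± 0.34 (adjusted p = 4.76e-05), and Il7r, the receptor for the survival cytokine IL-7, fell by 1.68 ± 0.33 (adjusted p = 0.0012) (31.6 FPKM at 0 h, 30.0 at 8 h and 9.17 at 24 h). Cd4, also made by macrophages and dendritic cells, was at 36.1 FPKM at 0 h, 43, 48.8 and 52.4 at 6, 7 and 8 h, and 62.3 at 24 h, 0.77 ± 0.33 (adjusted p = 0.1), and Icos and Ccr7 were not called. With a pseudocount of 0.1 in place of 1, 6 T cell genes were called lower, and Cd3e, Cd2 and Il7r were not among them.

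Natural killer cell genes did not pass the limma test in either direction (0 of 11, with 1 at an unadjusted p below 0.05; median 0.17, and -0.09 after the rescaling). Ncr1, the NK receptor NKp46, was at 14.9 FPKM at 0 h, 9.01, 6.2 and 8.86 at 6, 7 and 8 h, and 16.8 at 24 h. Gzmb, a cytotoxic granule protease, was at 7.35 FPKM at 0 h, 10.1, 7.01 and 6.61 at 6, 7 and 8 h, and 34.4 at 24 h, 2.08 ± 0.98 (adjusted p = 0.135). Of 14 tested dendritic cell genes, 4 were lower and 1 higher (median -0.25), the lower ones including Siglech of plasmacytoid dendritic cells (24.2 to 5.49 FPKM) and Cd209a (11.1 to 2.17 FPKM); none of the 4 stayed called with a pseudocount of 0.1. Flt3 and Zbtb46, which define dendritic cells, were not called: Flt3 was at 13.9 FPKM at 0 h and 9.6 at 24 h, and Zbtb46 at 3.77 FPKM at 0 h and 6.6 at 24 h. Of 13 platelet lineage genes, 1 was higher (Tubb1, 18.9 to 33 FPKM), beside 13.2% of all tested genes. Pf4 was at 124 FPKM at 0 h and 164 at 24 h. Tubb1 was not called with a pseudocount of 0.1, after quantile normalization, after the rescaling or in a fit of spleen libraries alone.

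**Figure D3:**
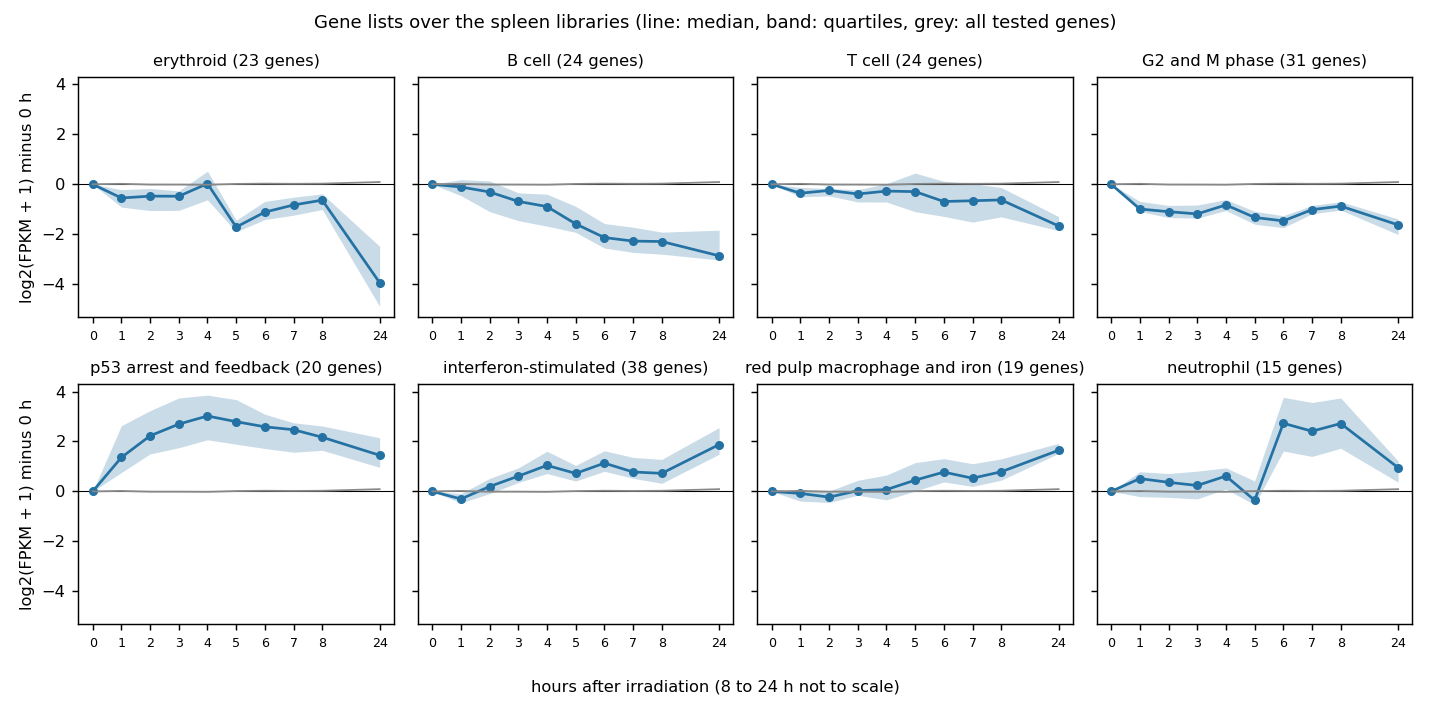
Change in log2(FPKM + 1) from the 0 h library in each of the 10 spleen libraries, for 8 gene lists, with the median as points, the quartiles as the band and all tested genes in grey; the interval from 8 to 24 h is not to scale. The B cell median was -2.29 at 8 h and -2.87 at 24 h, the erythroid median -0.64 and -3.94.

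Most cell cycle genes were lower at 24 h than at 0 h. Of 34 genes of DNA replication, 20 were lower at 24 h and 0 higher (median -1.39), and of 31 genes of G2 and mitosis 21 were lower and 0 higher (median -1.63). Against 6 to 8 h, limma called 0 of either list, with 3 and 8 genes at an unadjusted p below 0.05 and medians of -0.08 and -0.43. Mki67, the proliferation marker Ki-67, stood at 33.7 FPKM at 0 h, 10.9, 18.7 and 20.5 at 6, 7 and 8 h, and 6.18 at 24 h, and fell by 2.27 ± 0.52 (adjusted p = 0.00362). Rrm2, a subunit of the enzyme that makes deoxynucleotides, fell by 2.15 ± 0.48 (adjusted p = 0.00338), Mcm7 of the replicative helicase fell by 1.93 ± 0.41 (adjusted p = 0.0024) and Dut, which clears dUTP, fell by 2.06 ± 0.43 (adjusted p = 0.00184). Among mitotic genes, Ccna2 went from 29.7 to 3.39 FPKM and fell by 2.80 ± 0.60 (adjusted p = 0.00231), and Birc5 (survivin) fell by 2.71 ± 0.64 (adjusted p = 0.00475). Pcna, which p53 also induces, was at 72 FPKM at 0 h, 39.97, 40.8 and 43.1 at 6, 7 and 8 h, and 42.6 at 24 h, -0.74 ± 0.37 (adjusted p = 0.152).

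Genes of the DNA damage response machinery were lower or not called. Of 26 tested, 10 were lower and 0 higher (median -0.79), among them Brca1 (4.18 to 1.11 FPKM), Atm (8.91 to 3.17 FPKM) and the helicase gene Blm, which fell by 1.54 ± 0.34 (adjusted p = 0.00284). Chek2 and Xrcc1 were not called: Chek2 was at 7.603 FPKM at 0 h and 8.76 at 24 h, and Xrcc1 at 21 FPKM at 0 h and 21 at 24 h. The count of lower genes was 5 with a pseudocount of 0.1 and 4 in a fit of spleen libraries alone.

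Most ribosomal protein genes were lower by small amounts. Of 29 tested, 19 were lower and 0 higher (median -0.90). Rpl8 went from 1785 FPKM through 1169.7, 1070.2 and 1107 to 779.5 and fell by 1.19 ± 0.20 (adjusted p = 0.000263). The median stayed negative under each scaling. Genes of oxidative phosphorylation had 2 higher and 0 lower of 27 (median 0.24, -0.09 after quantile normalization and -0.02 after rescaling without haemoglobin and pancreas genes).

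Many targets of p53 were higher than at 0 h, and some had fallen since 6 to 8 h. Of 20 genes of arrest and feedback, 13 were higher at 24 h and 0 lower (median 1.45), and against 6 to 8 h 5 were lower and 0 higher (median -0.73). Cdkn1a, the gene of the cyclin-dependent kinase inhibitor p21 (chr17:29090979-29100722), stood at 4.45 FPKM at 0 h, 296, 219 and 216 at 6, 7 and 8 h, and 179.9 at 24 h, and rose by 5.05 ± 0.47 (adjusted p = 2.92e-07). It was highest at 5 h (311 FPKM), and at 24 h it was below each library from 2 to 8 h. Mdm2, the ubiquitin ligase that limits p53, stood at 22.5 FPKM at 0 h, 89.2, 79.1 and 73.1 at 6, 7 and 8 h, and 48.5 at 24 h. It rose by 1.07 ± 0.26 (adjusted p = 0.0063) against 0 h and fell against 6 to 8 h by 0.71 ± 0.22 (adjusted p = 0.036).

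Phlda3, an inhibitor of Akt, rose by 3.42 ± 0.44 (adjusted p = 1.54e-05), and the cytokine Gdf15 rose by 3.64 ± 0.81 (adjusted p = 0.00325), from 1.12 FPKM through 225 at 5 h to 25.4 at 24 h. Gtse1 and Ppm1d, regulators that end the p53 response, were not called against 0 h and fell against 6 to 8 h by 1.92 and 0.99. Btg2 (66.5 to 47.6 FPKM) and Sesn1 (59.4 to 38.1 FPKM) were not called.

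Of 18 apoptosis targets of p53, 10 were higher and 0 lower (median 1.25), and against 6 to 8 h 6 were lower and 0 higher (median -0.63). Bbc3, which encodes the cell death activator Puma, stood at 2.42 FPKM at 0 h, 27.9, 30.9 and 29.9 at 6, 7 and 8 h, and 13.7 at 24 h, and rose by 2.1 ± 0.34 (adjusted p = 0.000135). Eda2r, a receptor for ectodysplasin A2 on the cell surface, rose by 2.97 ± 0.46 (adjusted p = 8.41e-05), and at 24 h it lay among its values of 6 to 8 h (11, 7.58 and 9.21 FPKM, then 8.79). Bax, the pore-forming effector of apoptosis, rose by 1.5 ± 0.35 (adjusted p = 0.00422). After the rescaling without haemoglobin and pancreas genes, 5 of the 18 were called higher. Of 15 repair and metabolism targets, 5 were higher and 2 lower: Mgmt rose by 2.29 ± 0.50 (adjusted p = 0.00261), while Ddb2 and Polh, of nucleotide excision repair and translesion synthesis, fell by 1.30 and 0.91. Polh was not called with a pseudocount of 0.1 or in a fit of spleen libraries alone.

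Most interferon-stimulated genes rose. Of 38 tested, 29 were higher at 24 h and 0 lower, with the highest median of the lists of 5 or more tested genes (1.87), and 10 were higher and 1 lower against 6 to 8 h (median 1.02). The count higher than at 0 h was 21 with a pseudocount of 0.1, 22 after the rescaling and 23 after quantile normalization. Irf7, the factor that amplifies type I interferon production, stood at 43.3 FPKM at 0 h, 139, 115 and 106 at 6, 7 and 8 h, and 400.2 at 24 h, and rose by 3.18 ± 0.52 (adjusted p = 0.000183), a 9.25-fold difference in FPKM. Its 24 h level was above all 9 other spleen libraries. Ifit3, an antiviral protein that works with Ifit1 against viral RNA, was at 20.4 FPKM at 0 h, 69.4, 54 and 51 at 6, 7 and 8 h, and 223 at 24 h, and rose by 3.39 ± 0.86 (adjusted p = 0.0078). Ifit3b rose by 3.40 ± 0.78 (adjusted p = 0.00399); it is a near-identical copy of Ifit3, so the division of fragments between them is uncertain.

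Antiviral effectors rose beside them. Ifi44 rose by 3.27 ± 0.57 (adjusted p = 0.00033), from 4.04 to 47.6 FPKM, with 11.2, 7.57 and 8.07 between. Ifit1 rose by 3.07 ± 0.99 (adjusted p = 0.0302), the GTPase Mx1 rose by 2.99 ± 0.70 (adjusted p = 0.00442), Oasl2 rose by 2.85 ± 0.46 (adjusted p = 0.000151) and Bst2 (tetherin) rose by 2.43 ± 0.37 (adjusted p = 6.92e-05). Mx1 was above its 0 h level of 6.03 FPKM by 6 h (44.2, 44 and 35.7 FPKM, then 54.8). Gbp2b, a guanylate binding protein, had the largest rise against 6 to 8 h of genes with at least 0.1 FPKM on both sides (1.2 FPKM at 0 h, 0.241, 0.351 and 0.0667 at 6, 7 and 8 h, and 10.3 at 24 h). Sectm1a, a secreted and membrane protein, was also among the 5 largest rises, at 11.1 FPKM at 0 h, 5.59, 4.07 and 5.31 at 6, 7 and 8 h, and 31.3 at 24 h.

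The 9 interferon genes not called included Rsad2. Rsad2 (viperin) was at 30.4 FPKM at 0 h, 57.5, 64.5 and 70.2 at 6, 7 and 8 h, and 51 at 24 h, 0.73 ± 0.98 (adjusted p = 0.633). Irf9 (53.6 to 69.1 FPKM) was not called, and Ifi27 (84.2 to 56.2 FPKM) was not called against 0 h and fell against 6 to 8 h by 0.87 ± 0.28 (adjusted p = 0.049). Slfn4, a Schlafen gene that interferon and myeloid cells are known for, had the largest rise of all genes with at least 0.1 FPKM in both libraries: it was at 1.71 FPKM at 0 h, 165, 192 and 165 at 6, 7 and 8 h, and 93.3 at 24 h, and rose by 5.12 ± 0.82 (adjusted p = 0.000123). At 1 to 5 h it had stood between 2.83 and 17 FPKM.

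Promoters of interferon genes are shown because the interferon-stimulated response element is the textbook site at which such genes are switched on. In these stretches of 90 bases from upstream of the start (RefSeq, GRCm38.p6), capitals mark GAAANNGAAA or, on the other strand, TTTCNNTTTC, and overlapping matches run together. They lie at chr19:34640754-34640843, plus strand for Ifit1, chr4:156200841-156200930, minus strand for Isg15 and chr12:26456523-26456612, minus strand for Rsad2.
Ifit1: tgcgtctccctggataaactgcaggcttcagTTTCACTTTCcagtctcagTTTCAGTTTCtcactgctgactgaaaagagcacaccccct
Isg15: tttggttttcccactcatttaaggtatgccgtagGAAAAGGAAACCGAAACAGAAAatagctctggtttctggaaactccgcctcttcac
Rsad2: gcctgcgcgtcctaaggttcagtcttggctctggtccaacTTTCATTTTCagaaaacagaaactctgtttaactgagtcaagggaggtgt

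Of the 38 tested interferon genes, 27 had a promoter entry and 14 of these (51.9%) held GAAANNGAAA on either strand within 250 bases before a start, against 312 of all 9069 genes with an entry (3.44%). Isg15, a ubiquitin-like antiviral protein, rose by 2.44 ± 0.86 (adjusted p = 0.0466), a call that was lost when the library of 3, 6, 7 or 8 h was left out and under each other scaling. Rsad2 held a match and was not called. Among 18 B cell genes with an entry, 2 (11.1%) held the letters.

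Most macrophage genes of the red pulp rose, several of them after 8 h. Of 19 tested genes of red pulp macrophages and iron handling, 16 were higher and 0 lower (median 1.65), and 9 were higher and 0 lower against 6 to 8 h (median 0.99). Spic, the factor that makes a macrophage a red pulp macrophage, stood at 127 FPKM at 0 h, 307, 206 and 239 at 6, 7 and 8 h, and 477 at 24 h, and rose by 1.91 ± 0.30 (adjusted p = 0.000107). Cd5l, a secreted survival factor of macrophages, was at 108 FPKM at 0 h, 352, 388 and 459.7 at 6, 7 and 8 h, and 882 at 24 h, and rose by 3.02 ± 0.50 (adjusted p = 0.000202). Its 24 h library was above all others. Spic was not called with a pseudocount of 0.1.

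Iron genes were among them. Slc40a1, the iron exporter ferroportin, was at 367 FPKM at 0 h, 587, 435 and 589 at 6, 7 and 8 h, and 1514 at 24 h, and rose by 2.04 ± 0.59 (adjusted p = 0.0173). Slc11a1, which moves iron out of the phagosome, rose by 2.18 ± 0.34 (adjusted p = 0.000101), and the ferritin gene Ftl1 rose by 1.66 ± 0.30 (adjusted p = 0.00052), from 1508 to 4778 FPKM. Hmox1, the enzyme that breaks down haem, was at 889 FPKM at 0 h, 3183, 2586 and 2799 at 6, 7 and 8 h, and 3424 at 24 h, 1.94 ± 0.74 (adjusted p = 0.0645), and was not called. Fcgr1, the high-affinity IgG receptor, rose by 2.35 ± 0.55 (adjusted p = 0.00438), but not with a pseudocount of 0.1.

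Most marginal zone macrophage genes tested rose too. Siglec1, the sialic acid receptor of metallophilic macrophages, was at 12.1 FPKM at 0 h, 23.3, 19.5 and 16.9 at 6, 7 and 8 h, and 63.7 at 24 h, and rose by 2.30 ± 0.28 (adjusted p = 6.77e-06). Marco, a scavenger receptor, rose by 2.25 ± 0.50 (adjusted p = 0.003) from 141 FPKM, through 677, 614 and 588, to 674. Of the 6 genes tested 4 were higher and 1, Cd209a, lower, with 2 higher, Marco not among them, at a pseudocount of 0.1.

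Most genes for the uptake and digestion of dead cells rose. Of 23 tested, 18 were higher and 0 lower (median 1.61), and 10 were higher and 0 lower against 6 to 8 h (median 0.68). Gas6, which bridges dying cells to the receptors Mertk and Axl, was at 30.5 FPKM at 0 h, 83, 77.6 and 76.1 at 6, 7 and 8 h, and 159.7 at 24 h, and rose by 2.35 ± 0.43 (adjusted p = 0.000486). Mertk and Axl rose by 1.77 and 1.61. The lysosomal protease gene Ctsd was at 497 FPKM at 0 h, 1597, 1583 and 1892 at 6, 7 and 8 h, and 3016 at 24 h, and rose by 2.60 ± 0.32 (adjusted p = 6.83e-06). Cd68, a lysosomal marker of macrophages, rose by 2.29 ± 0.31 (adjusted p = 2.16e-05), and Gpnmb, a lysosomal glycoprotein of macrophages that have taken up debris, rose by 3.78 ± 0.52 (adjusted p = 2.51e-05). Timd4 and Cd36 were not called. These genes share the macrophage as a source with the red pulp list, and Mertk and Axl are on both lists.

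Most complement genes rose, and some genes of lipid handling. Of 18 complement genes, 11 were higher and 2 lower (median 1.76). The C1q chains C1qa, C1qb and C1qc, which tag dead cells, rose by 1.58, 1.79 and 1.83, and C1qc was at 462 FPKM at 0 h, 659, 578 and 731 at 6, 7 and 8 h, and 1642 at 24 h. C2 rose by 2.21 ± 0.40 (adjusted p = 0.000448), and the lower ones were Cr2, also a B cell gene, and Cd55, whose call was lost without the 3, 4 or 7 h library. C5ar1, the receptor for C5a on neutrophils and macrophages, was at 1.16 FPKM at 0 h, 23, 21.8 and 24.2 at 6, 7 and 8 h, and 1.41 at 24 h, and fell against 6 to 8 h by 3.32 ± 0.51 (adjusted p = 0.000226). Of 19 genes of lipid handling, 8 were higher and 0 lower (median 1.31, 5 higher at a pseudocount of 0.1), including Apoe, which went from 1472 to 4402 FPKM and rose by 1.58 ± 0.31 (adjusted p = 0.00112), and the lipid chaperone Fabp5, which rose by 2.16 ± 0.39 (adjusted p = 0.000523). Of 16 cholesterol synthesis genes 1 was lower (Fdps) and 0 higher. Hk3, the hexokinase of myeloid cells, rose by 3.60 ± 0.58 (adjusted p = 0.000129).

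**Figure D4:**
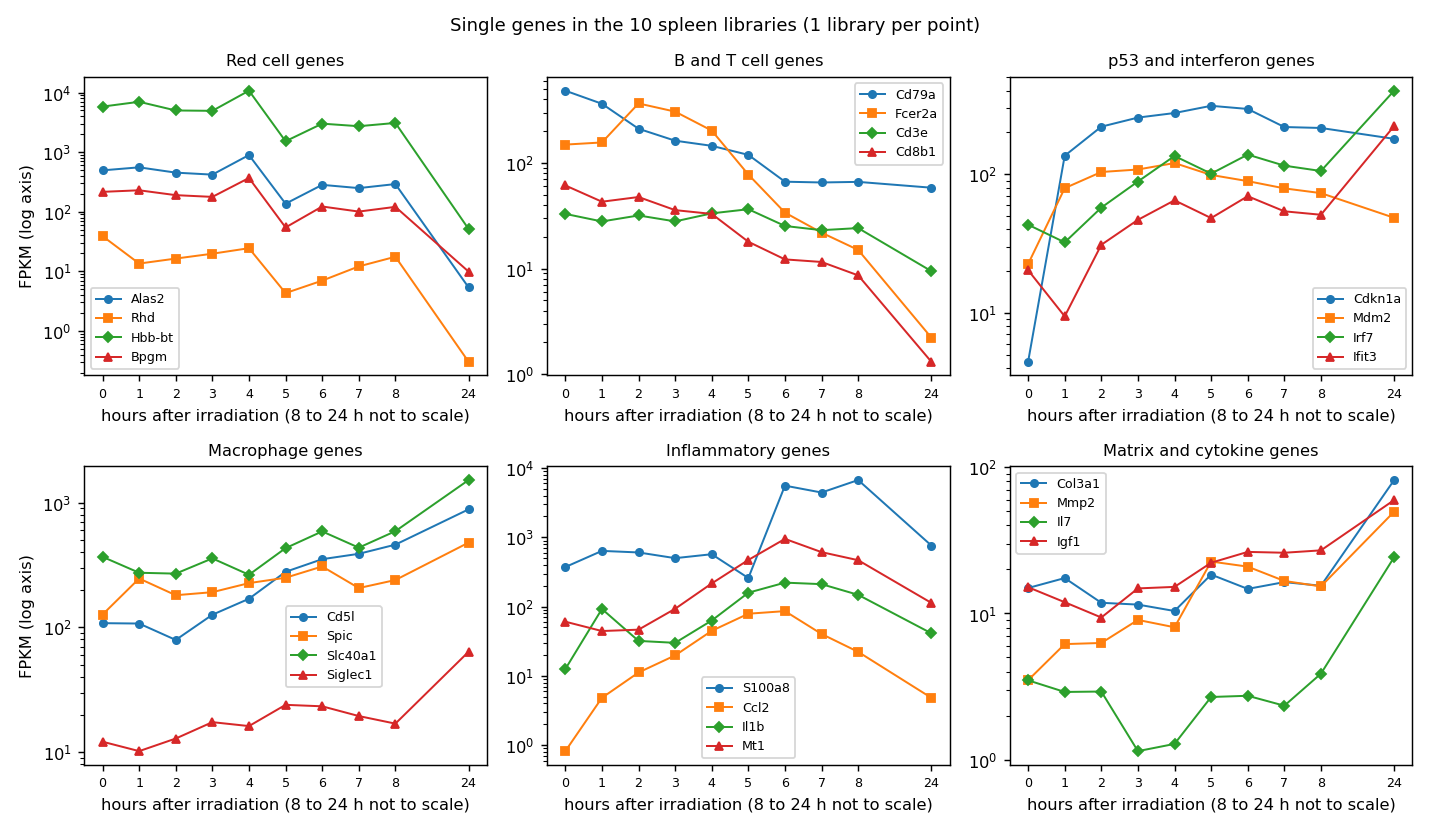
FPKM (log axis) of 24 genes in the 10 spleen libraries by hour after irradiation, 1 library per point, with the interval from 8 to 24 h not to scale. Alas2 stood at 291 FPKM at 8 h and 5.36 at 24 h, Cd5l at 459.7 and 882, and S100a8 at 6719 and 762.

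Most neutrophil genes fell between 6 to 8 h and 24 h. Of 15 tested, 3 were higher than at 0 h, beside 13.2% of all tested genes, and 0 lower (median 0.95). Against 6 to 8 h, 10 were lower and 0 higher (median -1.76). S100a8, an abundant protein of the neutrophil cytosol, stood at 373 FPKM at 0 h, 5575, 4436 and 6719 at 6, 7 and 8 h, and 762 at 24 h. Its 24 h level was not called against 0 h, with a change of 1.03 ± 0.79 (adjusted p = 0.371), and fell against 6 to 8 h by 2.85 ± 0.64 (adjusted p = 0.00605). At 5 h it had been at 259 FPKM. Csf3r, the receptor for the granulocyte growth factor G-CSF, rose by 2.72 ± 0.34 (adjusted p = 9.51e-06), Mmp8 rose by 1.43 ± 0.49 (adjusted p = 0.0394) and Cxcr2 rose by 1.31 ± 0.40 (adjusted p = 0.0224), the last 2 not with a pseudocount of 0.1 or after the rescaling. Ngp of neutrophil precursors was at 59.6 FPKM at 0 h, 48, 30.7 and 129.9 at 6, 7 and 8 h, and 44.2 at 24 h and was not called.

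Some inflammatory mediators were lower than at 6 to 8 h. Of 22 genes of the NF-kB and cytokine list, limma called 0 in either direction against 0 h, with 4 at an unadjusted p below 0.05 (median 0.36), and 9 were lower and 0 higher against 6 to 8 h (median -1.17). Il1b, the cytokine interleukin 1 beta, was at 12.6 FPKM at 0 h, 222, 211 and 148 at 6, 7 and 8 h, and 41.2 at 24 h, and fell against 6 to 8 h by 2.18 ± 0.62 (adjusted p = 0.0257). Ccl2, which attracts monocytes, was at 0.82 FPKM at 0 h, 86.1, 40.3 and 22.2 at 6, 7 and 8 h, and 4.82 at 24 h, and Cxcl1, which attracts neutrophils, at 0.442 FPKM at 0 h, 43.5, 16.9 and 10.7 at 6, 7 and 8 h, and 1.06 at 24 h. The values at 6 h, in the library with pancreas transcripts, were the highest of the 3 hours for each of these, and those at 7 and 8 h were also above 24 h.

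Of 29 chemokine and chemokine receptor genes, 10 were higher and 1 lower against 0 h (median 1.17, 5 higher at a pseudocount of 0.1), and 4 were higher and 9 lower against 6 to 8 h. Ccl12 rose by 3.33 ± 0.74 (adjusted p = 0.00295) and Ccl8 rose by 2.50 ± 0.74 (adjusted p = 0.0199), both attractants of monocytes, and the receptor Ccr3 rose by 1.59 ± 0.42 (adjusted p = 0.0102). Ccl8 and Ccr3 were not called with a pseudocount of 0.1. Monocyte genes had 1 higher of 12 (Fn1), beside 13.2% of all tested genes, and 0 lower, and 4 higher in a fit of spleen libraries alone. Against 6 to 8 h, 3 of the 12 monocyte genes were higher and 3 lower (median 0.13), beside 6.24% and 4.35% of all tested genes. Cx3cr1 of patrolling monocytes rose by 2.46 ± 0.29 (adjusted p = 1.66e-05), and Ccr2 and F13a1 of classical monocytes fell by 1.29 and 2.30. Cx3cr1 was at 9.04 FPKM at 0 h, 1.78, 3.89 and 2.07 at 6, 7 and 8 h, and 18 at 24 h. Its 6 to 8 h libraries were therefore below 0 h.

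The metallothionein genes Mt1 and Mt2 declined from 6 h to 8 h and were lower still at 24 h. Mt1, which binds zinc, was at 60.6 FPKM at 0 h, 949.8, 612 and 468 at 6, 7 and 8 h, and 113 at 24 h. Mt2 was at 27 FPKM at 0 h, 520.2, 341 and 229.6 at 6, 7 and 8 h, and 19.4 at 24 h. Against 6 to 8 h they fell by 2.51 and 4.08. Of 18 glucocorticoid and metallothionein genes, 3 were higher than at 0 h (Klf9, Ddit4 and Il1r2), beside 13.2% of all tested genes, and 0 lower. The count higher was 2 with a pseudocount of 0.1 or after quantile normalization, 1 after the rescaling and 5 in a fit of spleen libraries alone. Against 6 to 8 h, 5 of the 18 were lower. Of 18 immediate early genes, 0 were higher and 2 lower (Myc, 20.5 to 5.08 FPKM, and Klf2, 69.1 to 24.2 FPKM), with a median of 0.08 that was negative after quantile normalization (-0.06) and after rescaling (-0.16). Without the 7 h library neither Myc nor Klf2 was called. Bag3, a co-chaperone, was the 1 of 14 heat shock genes called higher (2.91 to 9.82 FPKM), beside 13.2% of all tested genes. Stra6, a retinol transporter, was among the 5 genes with the largest fall against 6 to 8 h, which also held Hba-a1, Alas2 and Hbb-bt. It was at 1.1 FPKM at 0 h, 24.3, 30.0 and 30.5 at 6, 7 and 8 h, and 0.31 at 24 h, and was not called against 0 h.

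Most of the matrix genes tested rose. Of 33 tested extracellular matrix genes, 23 were higher and 0 lower (median 1.39), and 8 were higher and 0 lower against 6 to 8 h (median 0.57). The count higher than at 0 h was 18 with a pseudocount of 0.1, 17 after the rescaling and 20 after quantile normalization. Col3a1, a fibrillar collagen, was at 14.9 FPKM at 0 h, 14.7, 16.4 and 15.5 at 6, 7 and 8 h, and 81.8 at 24 h, and rose by 2.38 ± 0.59 (adjusted p = 0.00628). Its 24 h library was above all others. Mmp2, a gelatinase made by fibroblasts, was at 3.5 FPKM at 0 h, 20.9, 16.7 and 15.3 at 6, 7 and 8 h, and 49.7 at 24 h, and rose by 3.50 ± 0.42 (adjusted p = 6.77e-06). Mmp3 (stromelysin) rose by 3.78 ± 0.79 (adjusted p = 0.00184) from 0.828 FPKM, with its highest value at 8 h (67.2). Col1a1 and Col6a1 rose by 2.36 and 2.07. Timp1, an inhibitor of these proteases, is listed at 0 at 0 h and was at 9.32 FPKM at 1 h, 142 at 8 h and 70.8 at 24 h; an exact 0 can be a failed estimate, so no fold is given.

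Of 19 stromal genes, 9 were higher and 1, Cr2, lower (median 1.40); 4 were higher at a pseudocount of 0.1 and 5 after rescaling. Cxcl12, which holds blood progenitors in their niche, went from 227 to 742 FPKM and rose by 1.70 ± 0.37 (adjusted p = 0.00279). Tlx1, needed for the spleen to form, rose by 1.54 ± 0.33 (adjusted p = 0.00259), though not with a pseudocount of 0.1, and the proteoglycan gene Dcn rose by 2.12 ± 0.51 (adjusted p = 0.00517). Of 17 endothelial genes, 4 were higher and 0 lower (median 1.11), with 1 higher at a pseudocount of 0.1; Cdh5, the cadherin of vessel walls, was at 15.3 FPKM at 0 h and 30.5 at 24 h and was not called.

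Many survival and growth cytokines for lymphocytes and progenitors were higher. Of 17 tested, 10 were higher and 0 lower (median 1.53). Il7, the survival factor of naive T cells made by stroma, was at 3.49 FPKM at 0 h, 2.74, 2.34 and 3.88 at 6, 7 and 8 h, and 24.3 at 24 h, and rose by 2.49 ± 0.45 (adjusted p = 0.000498). Against 6 to 8 h it rose by 2.68 ± 0.37 (adjusted p = 6.98e-05), and no other spleen library was above 3.88 FPKM. Igf1 was at 15.1 FPKM at 0 h, 26.4, 26 and 27 at 6, 7 and 8 h, and 59.7 at 24 h, and rose by 1.91 ± 0.26 (adjusted p = 2.16e-05). Il15, a factor of NK and memory T cells, rose by 1.82 ± 0.42 (adjusted p = 0.00435), Tnfsf13b (BAFF), which keeps B cells alive, rose by 1.80 ± 0.47 (adjusted p = 0.0096), and Kitl, the ligand of the progenitor receptor Kit, rose by 1.53 ± 0.24 (adjusted p = 0.000113). Among 12 progenitor genes, Hlf, Meis1 and Gata2 were higher and Myb lower (13 to 2.95 FPKM), and Kit was at 7.57 FPKM at 0 h and 3.8 at 24 h. Gata2 and Meis1 were not called with a pseudocount of 0.1 or after the rescaling.

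Apart from Cela1, pancreas transcripts were low at both ends of the comparison. The pancreas genes Pnlip and Ctrb1 were at 7419 and 14226 FPKM at 6 h, but at 0.129 and 0 at 0 h and 0.103 and 0 at 24 h; limma called 0 of 17 tested, with 0 at an unadjusted p below 0.05. The summed FPKM of the pancreas list was 26.5 at 0 h and 65.6 at 24 h, nearly all of it Cela1, an elastase gene, at 25.4 FPKM at 0 h and 64.5 at 24 h, which was not called. The summed FPKM of the fat list was 51.4 at 0 h and 105 at 24 h, most of it the lipid chaperone Fabp4, at 18 FPKM at 0 h and 54.6 at 24 h, and the lipase gene Pnpla2, at 20.5 FPKM at 0 h and 41.7 at 24 h. Of 6 fat genes tested limma called 0, with 0 at an unadjusted p below 0.05, and 1 was higher in a fit of spleen libraries alone. Their part in the other results was not tested. Plin1 of fat and Fabp2 of the gut were listed at 0 in both libraries, and Adipoq was at 0.481 FPKM at 0 h and 0.129 at 24 h. Of 9 mesothelial genes 1 was higher, Wt1 (4.01 to 16.3 FPKM), also a gene of spleen stroma, while Msln was at 3.03 FPKM at 0 h and 5.96 at 24 h. Wt1 was not called with a pseudocount of 0.1. Of the 12 gut epithelium genes 4 were tested and 1 was lower (Cdh17, 4.97 to 0.895 FPKM), which is also made by B cells. Of 3 thymocyte genes tested, Themis and Ccr9, which mature T cells also make, were lower. Without the 6 h spleen and 2 h large intestine libraries, 1904 genes were higher and 1000 lower.

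Genes listed near 0 on one side are given without a fold. Under 0.1 FPKM at 24 h were 18 of the genes called lower, 6 of them at exactly 0, with Hbb-bs (442 FPKM at 0 h), Car1, Slc4a1, Klf1 and Trim10 the highest at 0 h. Under 0.1 FPKM at 0 h were 11 of the genes called higher, led by Timp1, Sct (25.1 FPKM at 24 h), Atp5g1, Haghl and Matn1.

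The spleen was set against thymus, the other lymphoid organ, by the difference of their changes from 0 h to 24 h. Of 11443 genes expressed in both organs, 504 changed more upward in spleen (4.4%) and 462 more downward (4.04%). The 24 h thymus library held gut transcripts, with Fabp2 at 2351 FPKM against 0.545 at 0 h, and their part in these differences was not tested. After quantile normalization 66.2% of the differing genes changed more upward in spleen, in place of 52.2%. Of 24 T cell genes 5 differed upward in spleen and 0 downward (median 0.90). Cd4 went from 195 to 35.1 FPKM in thymus, a difference of 3.21 ± 0.47 (adjusted p = 0.000114), and Tcf7 from 646 to 37.1 FPKM, a difference of 2.38 ± 0.52 (adjusted p = 0.00481). Of the cell cycle genes, 5 of 34 replication genes and 5 of 31 mitotic genes differed upward and 0 downward, Rrm2 by 2.30 ± 0.68 (adjusted p = 0.0371) after going from 131 to 5.04 FPKM in thymus.

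In the other direction, 8 of 12 MHC class II genes and 7 of 22 B cell genes changed more downward in spleen, and 0 of either more upward. H2-Aa went from 898 to 2492 FPKM in thymus, a difference of -3.0 ± 0.68 (adjusted p = 0.00682), and Ctss from 165 to 1294 FPKM, -1.94 ± 0.52 (adjusted p = 0.0197). Of 12 monocyte genes 5 differed downward and 1 upward, with Ccr2 at -3.28 ± 0.46 (adjusted p = 8.04e-05) and Ly6c2 at -2.64 ± 0.62 (adjusted p = 0.00797). Under limma, the changes of p53 arrest genes differed in 0 of 20, with 4 at an unadjusted p below 0.05, and those of interferon genes in 1 of 38 (Gbp3, downward); this does not show that they were alike, and Cdkn1a had a difference of 0.88 ± 0.67 (adjusted p = 0.483). Of 19 red pulp and iron genes, limma called 1 upward in spleen and 0 downward, with a median difference of 0.05. Cd163 of red pulp macrophages differed by 2.39 ± 0.48 (adjusted p = 0.00292), with 3.31 to 1.43 FPKM in thymus.

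Against small intestine, 323 of 10402 genes changed more upward in spleen (3.11%) and 149 more downward (1.43%). Of these, 68.4% changed more upward, against 50.2% after quantile normalization and 57.8% after median centring. Clearance genes differed upward in 10 of 21 and downward in 0 (median 1.62), as did 6 of 16 red pulp and iron genes, 6 of 17 complement genes and 6 of 28 matrix genes. Ctsd went from 233 to 305 FPKM in small intestine, a difference of 2.22 ± 0.44 (adjusted p = 0.00868), and Slc11a1 from 2.1 to 0.862 FPKM, 2.92 ± 0.48 (adjusted p = 0.00242). C1qa differed by 1.34 ± 0.36 (adjusted p = 0.0352) and Kitl by 1.87 ± 0.34 (adjusted p = 0.00535). Cdkn1a, already at 199 FPKM in unirradiated small intestine and at 304 at 24 h, differed by 4.45 ± 0.67 (adjusted p = 0.00125). Replication genes differed downward in 4 of 32 and upward in 0, with Dut at -3.03 ± 0.60 (adjusted p = 0.00839) and Rrm2 at -2.86 ± 0.68 (adjusted p = 0.0206). Against thymus, limma called 0 of 22 clearance genes in either direction, with 3 at an unadjusted p below 0.05 (median -0.15). Of 17 complement genes, 0 changed more upward in spleen than in thymus and 2 more downward (median -0.20). Of 31 matrix genes, 1 changed more upward than in thymus and 0 more downward (median 0.45). Few calls do not show that the organs were alike. These comparisons share the spleen libraries, and each rests on 4 single libraries.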

How the data were processed

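Spleen, thymus, small intestine and large intestine RNA was read as poly(A) TruSeq libraries that do not keep strand, per the labels' protocols, so a gene and an antisense partner cannot be told apart. The deposited values are FPKM per gene, made with TopHat2 2.1.0 and Cufflinks 2.1.1 against mm10, per the submitters' processing notes, which give no role or order of the tools. No counts, fragment totals or replicate libraries were used here, so precision rests on the spread between libraries.

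From these, limma 3.58.1 in R 4.3.3 was run on log2(FPKM + 1) over 40 tissue libraries, with a mean for each tissue and window (0, 1 to 2, 3 to 5, 6 to 8 and 24 h), a mean-variance trend and 20 residual degrees of freedom. The windows that hold several hours give the spread, so a real change within a window counts as error. The labels do not say that libraries came from separate animals, and p-values then measure only the spread between these libraries. Tests are two-sided, with Benjamini-Hochberg adjustment over all genes tested. The procedure was also run on simulated data, in which the 0 h and 24 h libraries were given the spread of the windows. That simulation cannot test whether the real 0 h and 24 h libraries vary so. Genes with a mean of at least 1 FPKM over the spleen libraries were tested, and also in the other organ for differences between organs.

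Named are the 10 genes with the highest and the 10 with the lowest change from 0 h and at least 0.1 FPKM in both libraries, the 5 in each direction from 6 to 8 h, up to 5 in each direction listed near 0, and in each list the genes that changed most or define it. A few genes that this rule names are not reported here. Some further list members were named after their values were seen. The members and the lists were chosen with earlier results of these data known. The difference between organs was given for named genes and for 14 list members chosen after their values were seen. Near-identical gene copies (globins, Ifit3 and Ifit3b) are uncertain. The 13611 gene symbols were matched to RefSeq, of which 13027 were found. Alternatives covered the pseudocount, the filter, scaling, window borders, the libraries in the fit and each spleen library of 1 to 8 h left out.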

Additional observations from a re-analysis of the deposited data

Results flagged for a closer look

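Some changes from 0 h to 24 h in spleen differed from those in another organ by limma's test of the difference itself (log2 of FPKM + 1, SE, Benjamini-Hochberg adjusted over all genes tested, 1 library per organ and time). Spleen minus thymus was positive with 2.05 ± 0.60 for Mmp2 (adjusted p = 0.0335), 3.21 ± 0.47 for Cd4 (adjusted p = 0.000114), 2.38 ± 0.52 for Tcf7 (adjusted p = 0.00481), 2.30 ± 0.68 for Rrm2 (adjusted p = 0.0371) and 2.39 ± 0.48 for Cd163 (adjusted p = 0.00292). It was negative with -4.53 ± 0.89 for Bpgm (adjusted p = 0.00226), -4.98 ± 0.75 for Cldn13 (adjusted p = 0.000153), -3.0 ± 0.68 for H2-Aa (adjusted p = 0.00682), -1.94 ± 0.52 for Ctss (adjusted p = 0.0197), -3.28 ± 0.47 for Ccr2 (adjusted p = 8.04e-05), -2.64 ± 0.62 for Ly6c2 (adjusted p = 0.00797) and -5.11 ± 0.86 for Car2 (adjusted p = 0.000559). The thymus library at 24 h held gut transcripts, whose part in these values was not tested.

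Spleen minus small intestine was positive with 4.67 ± 1.15 for Slfn4 (adjusted p = 0.0234), 4.45 ± 0.67 for Cdkn1a (adjusted p = 0.00125), 3.08 ± 0.60 for Mmp2 (adjusted p = 0.00692), 2.22 ± 0.45 for Ctsd (adjusted p = 0.00868), 2.92 ± 0.48 for Slc11a1 (adjusted p = 0.00242), 1.87 ± 0.34 for Kitl (adjusted p = 0.00535) and 1.34 ± 0.36 for C1qa (adjusted p = 0.0352). It was negative with -4.07 ± 0.89 for Bpgm (adjusted p = 0.012), -2.86 ± 0.68 for Rrm2 (adjusted p = 0.0206), -4.13 ± 0.86 for Car2 (adjusted p = 0.0099) and -3.03 ± 0.60 for Dut (adjusted p = 0.00839). Bpgm and Car2, both abundant in red cells, are negative against both organs, and Mmp2 is positive against both. None of the tissue groups used here held the 4 libraries needed to search for one far from the others.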

How the results depend on the processing

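No paired analysis was possible because the labels carry no replicate numbers. Among the named genes and list members, no called gene reversed under the alternatives run. Other called genes were not checked for this. The medians of the natural killer, immediate early, oxidative phosphorylation and fat lists changed sign under a scaling or without genes near 0. For 24 h against 0 h, lower genes numbered 575 with a 2-fold limit added, and rescaling without haemoglobin and pancreas genes, chosen after seeing the data, gave 869 higher and 1434 lower, so that lower genes were more numerous, as they were after quantile normalization (1223 and 1244). Leaving out each spleen library of 1 to 8 h gave 1494 to 1661 higher and 847 to 945 lower genes. For 24 h against 6 to 8 h, higher and lower genes numbered 412 and 339 with a pseudocount of 0.1, 402 and 267 in a fit of spleen libraries alone, 364 and 317 with the 2-fold limit, and 473 and 522 after the rescaling. Leaving out each library gave 439 to 796 and 338 to 576, lowest in both without the 7 h library. Against thymus, downward differences became the more numerous with a pseudocount of 0.1 (307 upward, 334 downward), no filter (631 and 878), median centring (477 and 493) and without the 6 h spleen and 2 h large intestine libraries (614 and 703). Against small intestine, 204 differed upward with other window borders, 501 without those 2 libraries, and 251 downward with no filter. The cause was not tested, except that a second limit lowers the count by construction. Fewer libraries did not always lower it: without the 6 h spleen and 2 h large intestine libraries, 1904 genes were higher and 1000 lower against 0 h. For named genes and list members against 0 h under the alternatives, 11864 values kept their direction and their side of the threshold. Another 300 lost the call, 165 gained it, and 75 of genes not called with the main settings changed sign. Genes near 1 FPKM are limited by depth, most in the 6 h library.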

Other observations

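Some genes alternated between values near 0 and clear expression from library to library. Atp5g1, a subunit of the mitochondrial ATP synthase, was at 0.0224, 12.1, 6.41, 0.0225, 0.0251, 0.000737, 8.89, 0.0225 and 11.8 FPKM at 0 to 8 h and 9.86 at 24 h. Haghl was at 0.0808, 1.36, 3.51, 0, 4.001, 0.833, 0.213, 0.00178 and 5.90 FPKM at 0 to 8 h and 8.71 at 24 h. Both are among the genes called higher at 24 h, and both reached levels of the same order in libraries of other hours, so the call rests on the low value at 0 h. Whether that value is a failed estimate was not tested.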
